A study of Sus scrofa with 2 samples.

Results

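In pig renal cortex, 98 of 12955 nuclei carried UMIs of a set of genes that mark an injured-tubule-like state, headed by RIMS2, AGMO and MEGF6. They were 57 of 7035 nuclei in the unperfused library and 41 of 5920 in the perfused library. A nucleus was taken when it had a UMI (a counted RNA molecule) of at least 3 of the 6 genes RIMS2, AGMO, MEGF6, CTHRC1, CCDC170 and GARNL3, held 500 to 6000 detected genes, and stayed under 3 upper limits per 10000 UMIs: 30 for LRP2 and CUBN together, 20 for SLC12A1 and 50 for SLC8A1. These limits take out nuclei rich in genes of the proximal tubule, the thick ascending limb and the distal nephron. The nuclei that met the rule are called members below, and the 6 genes that chose them are called rule genes.

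Single-nucleus RNA sequencing was done on kidneys of slaughterhouse pigs, which were flushed and kept for about 2 h at 4 °C. The unperfused group was cortex collected before perfusion, and the perfused group was cortex collected after 120 min of ex vivo machine perfusion at 37 °C and 100 mmHg. Each group was 1 library, and the labels name no animal, sex or age, so the effect of perfusion and the difference between 2 libraries cannot be told apart. No test between the groups was possible, and every interval below is a 95% interval of counting error alone.

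Injured tubule cells lose the transporters of their segment and switch on adhesion, matrix and signalling genes. Most recover, and those that do not are known as failed-repair or maladaptive tubule cells, which are marked in rodent and human kidney by genes such as VCAM1, CDH6, CREB5 and TPM1 and which signal to fibroblasts and leukocytes. Of the rule genes, RIMS2 encodes a scaffold of vesicle release sites, AGMO an enzyme that cleaves ether lipids, MEGF6 a protein with many EGF-like domains, and CTHRC1 a secreted protein of collagen-rich matrix. ITGB8, an integrin subunit that activates latent TGF-beta, and DCDC2, a doublecortin-domain protein of the cilium, were given as further markers of the state and were not used by the rule.

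The unperfused library held 34415254 UMIs in 7179 barcodes and the perfused library 35525592 UMIs in 6205 barcodes. The members were deeper than the rest. Their median was 5923 UMIs before and 5900 UMIs after perfusion, against 3989 and 4693 UMIs in all other nuclei. Since a rule that asks for 3 detected genes is met more easily by a deep nucleus, the shares depend on depth. Members were 0.810% of the unperfused nuclei (interval 0.614 to 1.05%) and 0.693% of the perfused nuclei (0.497 to 0.938%), and these intervals overlap. When every nucleus was thinned to 1000 UMIs, 9 of 6828 unperfused nuclei (0.132%) and 10 of 5576 perfused nuclei (0.179%) met the rule, with 207 and 344 shallower nuclei left out, and these intervals also overlap. The libraries shared 14 barcodes, none of them a member.

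The members sat at the edge of a wider set. Regardless of the upper limits, 187 unperfused and 163 perfused nuclei had 3 or more rule genes, and 119 and 113 of these were past the LRP2 and CUBN limit. Among nuclei within the 3 limits, 115 unperfused and 129 perfused nuclei had exactly 2 rule genes and stayed just outside, while 28 and 24 had exactly 3. Just inside, the nuclei with 3 rule genes had 1602 and 928 CPM of NCKAP5 (UMIs per 1000000 UMIs, summed over the nuclei) in the unperfused and perfused library, and those just outside had 668 and 348 CPM. CDH6 was at 186 and 194 CPM just inside and at 62.0 and 60.3 CPM just outside. The sets also differed in LRP2 and CUBN, at medians of 15.1 and 8.52 UMIs per 10000 inside and 2.56 and 2.16 outside. Whether the NCKAP5 and CDH6 differences go with that was not tested. For DCDC2 the unperfused values hardly differed, at 461 CPM inside and 441 CPM outside, and ITGB8 was higher outside in that library, at 384 CPM against 345 CPM. In the perfused library both were higher inside, DCDC2 at 894 CPM against 338 CPM and ITGB8 at 353 CPM against 208 CPM. On the other side of the LRP2 and CUBN limit, nuclei with 3 or more rule genes and 30 to 40 UMIs of the pair per 10000 (11 and 14 nuclei) had 3305 and 4917 CPM of NCKAP5, beside 2092 and 6626 CPM in the 18 and 7 members with 20 to 30.

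The rule genes were high in members because they chose them, and their levels are given as a description. RIMS2 (ENSSSCG00000031957) was at 833 CPM in unperfused members and 703 CPM in perfused members, beside 61.0 and 69.6 CPM in other nuclei. AGMO (ENSSSCG00000015356) was at 524 and 161 CPM, beside 37.2 and 31.0 CPM. MEGF6 (ENSSSCG00000024678) was at 125 and 131 CPM, beside 7.10 and 6.14 CPM. CTHRC1 was the scarcest rule gene, with 10 UMIs in 7 unperfused members and 26 UMIs in 16 perfused members. GARNL3, which encodes a protein with a Rap GTPase-activating domain, had a UMI in 83 of the 98 members, RIMS2 in 81, CCDC170 in 76, AGMO in 55, MEGF6 in 45 and CTHRC1 in 23.

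Over all members, both markers outside the rule were above other nuclei. ITGB8 (ENSSSCG00000015375) was at 668 CPM (591 to 754) in unperfused and 575 CPM (492 to 668) in perfused members, 3.89-fold and 3.72-fold the level in other nuclei. DCDC2 (ENSSSCG00000001085) was at 604 CPM (530 to 685) and 1069 CPM (955 to 1194), 2.56-fold and 3.90-fold the level in other nuclei. ITGB8 had a UMI in 78.9% of unperfused and 75.6% of perfused members, and DCDC2 in 82.5% and 78.0%. Nuclei with endothelial markers, which should lack such tubule genes and whose median depth was 1926 and 2254 UMIs, had a UMI of ITGB8 in 6.98% and 11.0% and of DCDC2 in 4.65% and 5.79%. Neither gene was restricted to members, since SLC12A1-rich nuclei had 233 and 199 CPM of ITGB8 and 273 and 271 CPM of DCDC2. The rule chose the nuclei from the same counts, so no test of members against other nuclei was made.

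**Figure D1:**
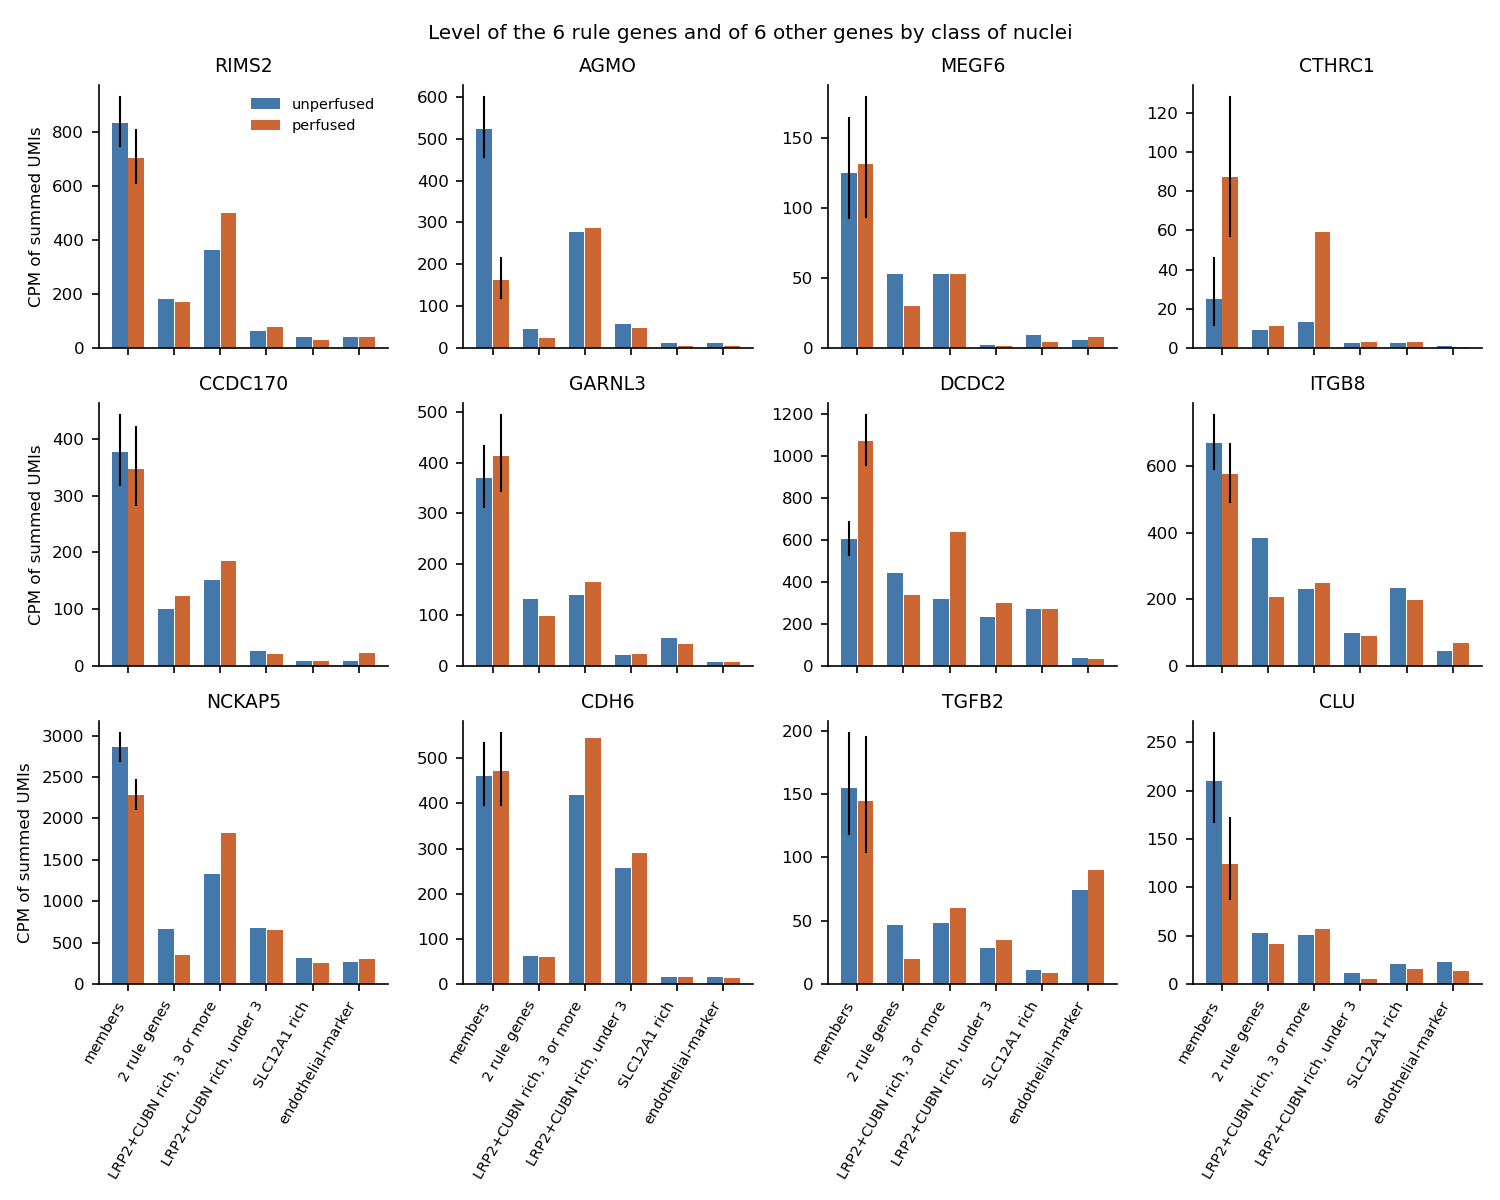
Bars give the CPM of summed UMIs (y axis, from 0) of the 6 rule genes, DCDC2, ITGB8, NCKAP5, CDH6, TGFB2 and CLU in 6 classes of nuclei of the unperfused (blue) and perfused (orange) library, and black lines give the 95% counting interval in members. NCKAP5 stands at 2861 and 2287 CPM in members and AGMO at 524 and 161 CPM, while NCKAP5 in nuclei rich in LRP2 and CUBN with 3 or more rule genes lies between members and the other classes, at 1333 and 1824 CPM.

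Outside the rule, the leading genes of the members included genes of adhesion, signalling and the cytoskeleton, named here gene by gene and not tested as groups. Of 7747 genes with a mean of at least 20 CPM, 190 (2.45%) were at least 2-fold higher in members than in other nuclei in both libraries, and 264 (3.41%) were at least 2-fold lower, with 5 CPM added to each level. NCKAP5, which encodes a microtubule-associated protein, was among the leading 20 genes. It had 1147 UMIs in 53 of 57 unperfused members and 680 UMIs in 34 of 41 perfused members, or 2861 and 2287 CPM beside 510 and 494 CPM in other nuclei. NCKAP5 also had a UMI in 33.7% and 38.2% of endothelial-marker nuclei, at 263 and 306 CPM, so detection alone does not set members apart.

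Adhesion and matrix genes were among the leading 20. KIRREL1, a nephrin-like adhesion protein, was at 359 and 494 CPM in members, 7.77-fold and 6.35-fold the level in other nuclei. ICAM1, the adhesion receptor that leukocytes bind, was at 112 and 182 CPM, 6.54-fold and 7.59-fold the level in other nuclei. LAMA1, a laminin chain of basement membrane, was at 110 and 121 CPM, and LTBP2, a matrix protein related to those that bind latent TGF-beta, was at 107 and 111 CPM. LTBP2 rested on few nuclei, with a UMI in 11 and 10 members and 44.2% of its unperfused UMIs in 1 nucleus.

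PIK3AP1, an adaptor of phosphoinositide 3-kinase, was at 352 and 377 CPM and had a UMI in 73 of the 98 members. FGD3, an exchange factor of the GTPase CDC42, was at 145 and 155 CPM, 9.14-fold and 8.14-fold the level in other nuclei. RASGEF1A, an exchange factor of Ras family GTPases, was at 59.9 and 40.4 CPM against 2.52 and 2.25 CPM. RASSF4, AFAP1L2, PPP1R12C, GDPD5, JPH1 and the oestrogen receptor gene ESR1 completed the set, between 5.52-fold and 12.8-fold higher than in other nuclei. A gene without a symbol, ENSSSCG00000049691, was at 1038 and 562 CPM against 34.0 and 48.7 CPM.

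Genes of maladaptive repair were higher in members in part. Of 12 genes of the list that were abundant enough, 6 were at least 2-fold higher in both libraries, beside 2.45% of all genes, and none was 2-fold lower in both. The list's median log2 fold was 1.06 for the unperfused and 0.96 for the perfused nuclei, beside 0.01 and 0.05 for all genes. CDH6, a cadherin of the developing and injured proximal tubule, was at 461 and 471 CPM, 3.53-fold and 3.38-fold the level in other nuclei. CREB5, a transcription factor of the CREB family, was at 195 and 158 CPM, 6.97-fold and 4.77-fold higher, although endothelial-marker nuclei also had 98.6 and 92.0 CPM. TPM1, an actin-binding tropomyosin, was 2.98-fold and 2.33-fold higher. The others were ITGB6, an integrin subunit that activates TGF-beta, the macrophage growth factor IL34 and the fibroblast growth signal PDGFB. VCAM1 was scarce, with 8 and 11 UMIs, and PROM1 had 2 UMIs in each library.

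Genes of acute tubule injury gave a mixed picture. Of 6 abundant enough, 3 were at least 2-fold higher in both libraries, beside 2.45% of all genes. CLU, the secreted chaperone clusterin, was at 210 and 124 CPM, 8.63-fold and 7.33-fold the level in other nuclei, and had a UMI in 61.4% and 39.0% of members beside 5.02% and 3.09% of endothelial-marker nuclei. SPP1 (osteopontin) was at 39.9 and 50.4 CPM and ANXA1 at 47.4 and 101 CPM. LCN2, SOX9 and TNFRSF12A had no UMI in any member. In LCN2 that allows a level of up to 7.48 CPM in unperfused and 10.1 CPM in perfused members. HAVCR1, KRT19, SOX4 and CD24 had no row under these symbols and were not analysed here.

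Proximal tubule genes were low. Of 16 in the list, 12 were at least 2-fold lower in members than in other nuclei in both libraries, beside 3.41% of all genes, CUBN, which the rule holds low, among them. The rule keeps LRP2 and CUBN rich nuclei out of members but leaves them among other nuclei. Low levels of genes expressed with that pair thus follow in part from the rule, and the count is a description. The list's median log2 fold was -2.05 and -2.14. The phosphate transporter SLC34A1 was at 74.8 and 74.0 CPM, beside 623 and 503 CPM, and the lactate transporter SLC5A12 at 120 and 53.8 CPM, beside 876 and 677 CPM. Both were also low in nuclei within the 3 limits with exactly 2 rule genes. There SLC34A1 was at 107 and 65.9 CPM and SLC5A12 at 139 and 78.2 CPM, so these low levels were not particular to members. HNF4A, the transcription factor that maintains proximal tubule identity, was at 54.9 and 47.1 CPM beside 242 and 211 CPM. Both limit genes are low by construction, yet LRP2 (megalin) had a UMI in 52 of 57 and 34 of 41 members, at 955 and 827 CPM, above its level of 147 and 165 CPM in endothelial-marker nuclei. CUBN was at 499 and 276 CPM, beside 130 and 166 CPM in endothelial-marker nuclei.

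Lists of other segments gave unequal pictures, beside 3.41% of all genes lower and 2.45% higher. Of 8 thick ascending limb genes 7 were at least 2-fold lower in both libraries, SLC12A1, which the rule holds low, among them, and of 4 intercalated cell genes 3. Of 6 genes of the distal convoluted and connecting tubule 1 was, SLC8A1, which the rule holds low, and of 4 principal cell genes none was. The rule keeps SLC12A1 rich and SLC8A1 rich nuclei out of members but leaves them among other nuclei. The thick ascending limb and distal counts thus follow in part from the rule and are a description. The distal list summed to 788 and 821 CPM in members, beside 2194 and 1791 CPM in all other nuclei and 709 and 689 CPM in LRP2 and CUBN rich nuclei. Of 7 thin limb genes only the Notch ligand JAG1 was 2-fold higher in both, at 152 and 195 CPM beside 60.2 and 57.2 CPM, and of 5 parietal epithelium genes none was. PKHD1, the gene of recessive polycystic kidney disease, was at 1487 and 1671 CPM beside 1042 and 1306 CPM in other nuclei. Among 15 genes of the primary cilium and cystic disease, PKD2 and the RNA-binding protein gene BICC1 were at least 2-fold higher in both. BICC1 had a UMI in 95 of the 98 members, at 2464 and 2781 CPM.

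UMIs of non-tubule markers were present in members. Endothelial markers summed to 501 and 713 CPM in members, beside 7989 and 7233 CPM in endothelial-marker nuclei, with EMCN the most abundant in unperfused and TEK in perfused members. Stroma markers summed to 509 and 1315 CPM in members, above the 350 and 680 CPM of other nuclei, with MEIS1 the most abundant in unperfused and FHL2 in perfused members. Immune markers summed to 324 and 743 CPM, beside 309 and 572 CPM in other nuclei, with CD74 the most abundant and PTPRC in 9 of 57 and 7 of 41 members. In the perfused library both sums rested on few nuclei. Without 3 members rich in ribosomal protein UMIs, described below, stroma markers were at 663 CPM and immune markers at 249.9 CPM. Nuclei rich in ribosomal protein UMIs were not taken out of the other nuclei, whose levels of 680 and 572 CPM are thus no like comparison. A UMI of at least 1 of 8 markers of other lineages, PTPRC, PECAM1, FLT1 and UMOD among them, was found in 39 unperfused and 31 perfused members. Scrublet called 8 of 57 and 3 of 41 members doublets (14.0% and 7.32%), beside 8.54% and 8.22% of other nuclei, and doublets were kept. What part of the member levels such RNA makes up was not tested.

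**Figure D2:**
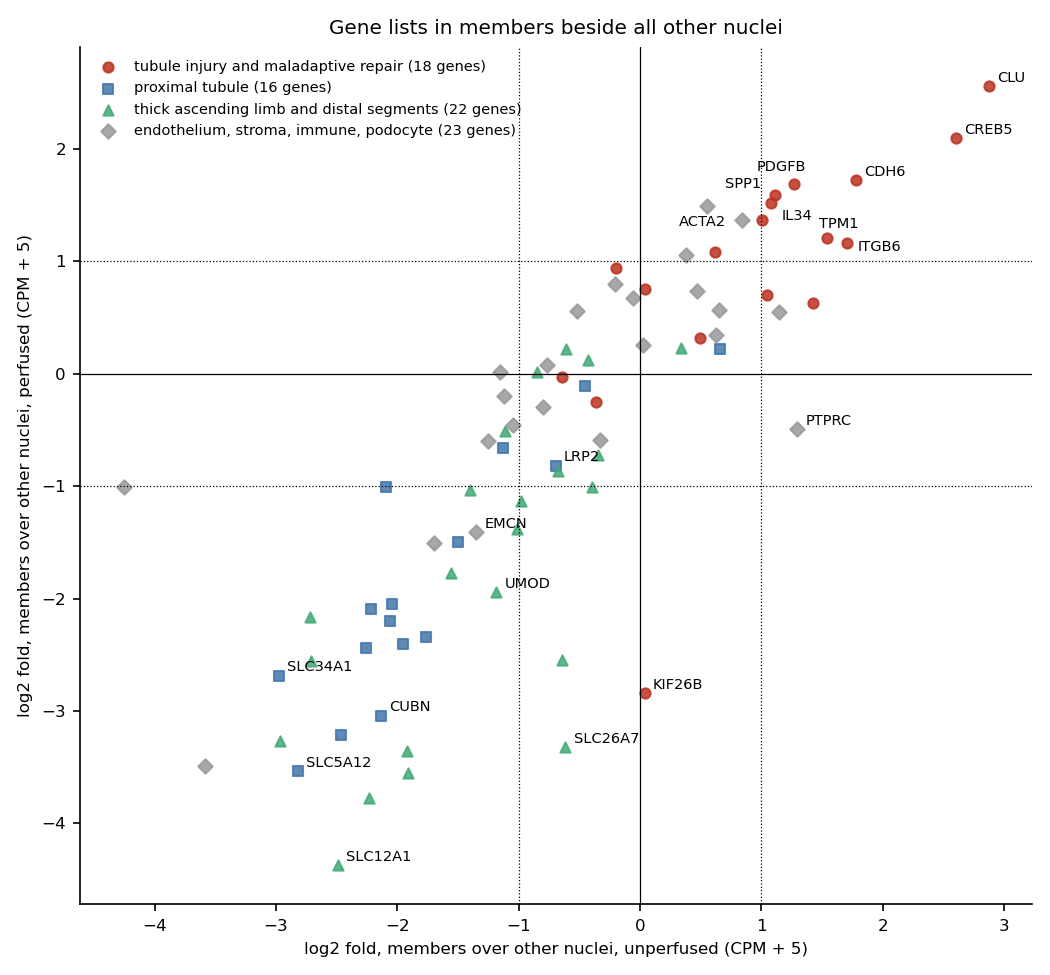
Each point is a gene of a list, at the log2 fold of members over all other nuclei (with 5 CPM added) in the unperfused (x axis) and perfused (y axis) library, and dotted lines mark 2-fold. Injury and repair genes such as CLU, CREB5 and CDH6 lie at the upper right, proximal tubule genes such as SLC34A1 and SLC5A12 at the lower left, and KIF26B, SLC26A7 and PTPRC lie off the diagonal.

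Against the 2.45% of all genes, 2 of 12 genes of the TGF-beta axis were at least 2-fold higher in both libraries, LTBP2 and the ligand gene TGFB2, which was at 155 and 145 CPM beside 29.4 and 35.2 CPM. TGFB2 was also at 74.4 and 90.3 CPM in endothelial-marker nuclei. The receptor gene TGFBR1 was at 32.4 and 50.4 CPM beside 34.4 and 35.4 CPM, and SMAD3, which carries the signal to the nucleus, was at 404 and 377 CPM beside 269.0 and 269.8 CPM. Of 16 epithelial adhesion genes, CDH6, ITGA3, ITGB6 and ITGB8 were 2-fold higher in both, and the laminin receptor subunit ITGA6 was 2-fold lower, at 160 and 158 CPM beside 346 and 372 CPM. Of 14 matrix and basement membrane genes only LAMA1 was 2-fold higher in both.

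Genes that work with RIMS2 and AGMO, and NF-kB targets, were counted beside the same 2.45%. Of 12 genes of presynaptic and exocytosis proteins, 1 was at least 2-fold higher in both libraries, the calcium sensor gene SYT1, with 34 UMIs in 14 unperfused members and 26 UMIs in 11 perfused members. UNC13B, which primes vesicles together with RIM proteins, was at 87.3 and 121 CPM beside 89.5 and 92.8 CPM. Of 8 genes for ether lipids and for tetrahydrobiopterin, the cofactor of AGMO, only FAR2, which makes fatty alcohols, was 2-fold higher in both, at 42.4 and 145 CPM beside 18.6 and 19.1 CPM. GCH1, the entry enzyme of tetrahydrobiopterin synthesis, was at 27.4 and 23.5 CPM beside 22.0 and 23.3 CPM. Of 5 NF-kB targets ICAM1 was 2-fold higher in both, and RELB was 6.40-fold and 2.04-fold higher before the 5 CPM were added. Of 7 cell cycle genes none reached the level needed, with KIF11 the most abundant at 10 UMIs in unperfused members, and 4 of the list at 0 in perfused members.

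Nuclei past the LRP2 and CUBN limit were also split by the number of rule genes. Of nuclei past the LRP2 and CUBN limit alone, 110 of 2233 unperfused (4.93%) and 110 of 1708 perfused (6.44%) had 3 or more rule genes. Of the 7747 genes, 92 (1.19%) were at least 2-fold higher in these than in LRP2 and CUBN rich nuclei with fewer rule genes, in both libraries, and they too were chosen by those genes and were deeper, at medians of 7349 and 8606 UMIs against 5472 and 6747 UMIs. KIRREL1 was at 88.8 and 262 CPM against 16.6 and 21.8 CPM. CLU was at 50.5 and 57.2 CPM against 11.4 and 5.27 CPM, and CREB5 at 61.4 and 57.2 CPM against 12.2 and 11.2 CPM. Each of these levels was below that of the members. CDH6 was less than 2-fold higher, at 419 and 545 CPM against 256 and 290 CPM, close to the 461 and 471 CPM of members. Of transport genes, SLC34A1 was at 945 and 691 CPM against 1346 and 1207 CPM in the nuclei with fewer rule genes, and CUBN at 4082 and 3976 CPM against 4839 and 5551 CPM.

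Members differed among themselves by how many rule genes they carried. With 4 to 6 rule genes there were 29 unperfused and 17 perfused members, with a median of 6388 and 5900 UMIs, and with exactly 3 there were 28 and 24, with a median of 5033 and 6371 UMIs. NCKAP5 ranged from 0 to 102 UMIs per nucleus in the unperfused library, with a median of 17, and from 0 to 118 in the perfused library, with a median of 5. In members with 4 to 6 rule genes its median was 26 and 18 UMIs, and in those with 3 it was 4.5 and 2 UMIs. In CPM, NCKAP5 was at 3979 and 4245 with 4 to 6 rule genes, and at 1602 and 928 with 3. CDH6 had a UMI in 89.7% and 94.1% of the first and in 42.9% and 41.7% of the second. CLU had one in 75.9% and 70.6% of the first and in 46.4% and 16.7% of the second.

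Thick ascending limb, endothelial and immune markers were lower with 4 to 6 rule genes than with 3, and proximal tubule markers were higher. Intercalated cell markers in the unperfused library were at 471 CPM with 4 to 6 rule genes and 143 CPM with 3. However, 94 of the 100 UMIs of the former and 20 of the 27 UMIs of the latter were in 1 nucleus each. Without the richest nucleus of each group the levels were 30.8 and 38.4 CPM. Thick ascending limb markers summed to 669 and 632 CPM in members with 4 to 6 rule genes and to 1750 and 1395 CPM in those with 3. All unperfused members held 472 UMIs of this list. Of these, 95 were in 1 member with 3 rule genes, called a doublet, and 80 in another with 3. Endothelial markers summed to 301 and 82.1 CPM against 727 and 1151 CPM, and immune markers to 202 and 98.5 CPM against 461 and 1190 CPM. Without the 3 members rich in ribosomal protein UMIs, perfused members with 3 rule genes had 970 CPM of endothelial and 380 CPM of immune markers. Proximal tubule markers summed to 3197 and 2775 CPM against 2837 and 2233 CPM. Of the 11 doublet calls, 3 fell in members with 4 to 6 rule genes and 8 in members with 3.

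**Figure D3:**
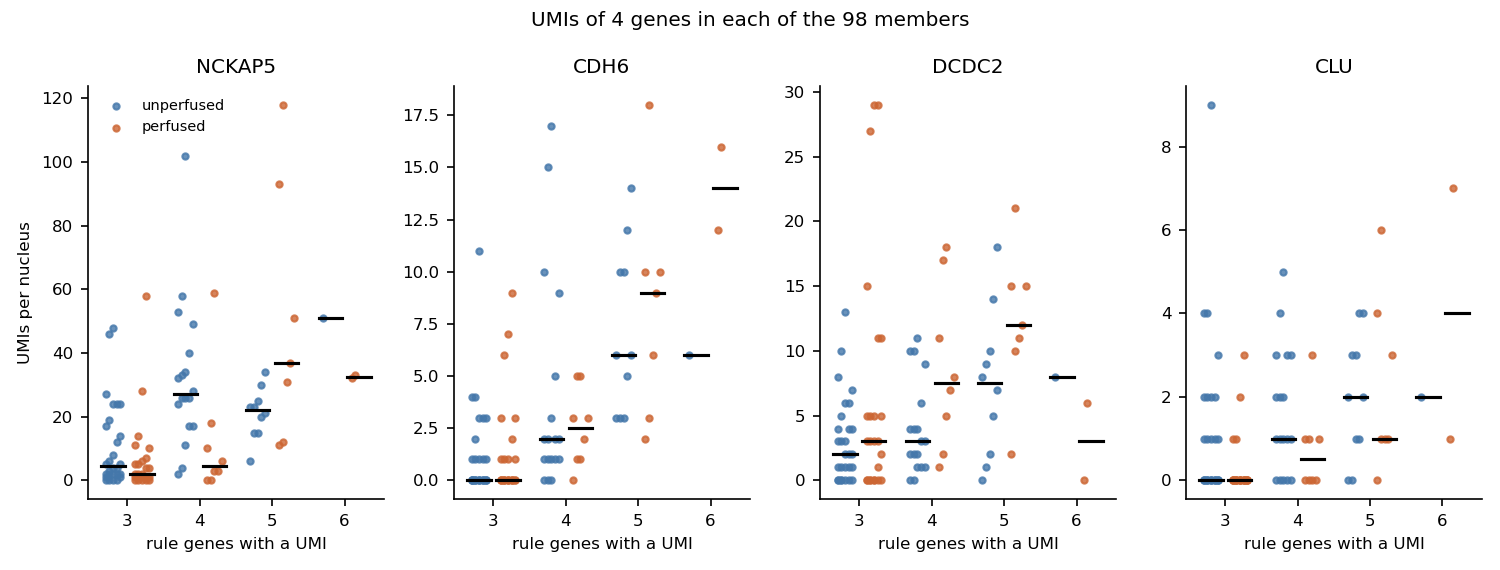
Each dot is a member, with its UMIs of NCKAP5, CDH6, DCDC2 or CLU (y axis) by the number of rule genes it carried (x axis) in the unperfused (blue) and perfused (orange) library, and black lines are medians. Most members with 3 rule genes lie near 0 for CDH6 and CLU, and the highest NCKAP5 values, 102 and 118 UMIs, are in members with 4 and 5 rule genes.

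The perfused and unperfused members were compared gene by gene to ask what machine perfusion may change in these cells. With 1 library per condition, a gene is counted as higher or lower when its CPM differed by 2-fold. Of 4747 genes that reached 20 UMIs in at least 1 of the libraries, 263 (5.54%) were 2-fold higher and 272 (5.73%) 2-fold lower in perfused members, and the median log2 ratio of all genes with a ratio was -0.01. The rule genes split, and since they chose the members of both libraries their ratios are a description. AGMO was lower in perfused members, with 48 UMIs in 15 of 41 members against 210 UMIs in 40 of 57, a log2 ratio of -1.70 (-2.18 to -1.24). CTHRC1 was higher, with a log2 ratio of 1.81 (0.71 to 3.03), although on 26 against 10 UMIs. The intervals of RIMS2, MEGF6, CCDC170 and GARNL3 held 0. In all other nuclei AGMO had a log2 ratio of -0.27, and in LRP2 and CUBN rich nuclei of -0.07. Where the 18 unperfused and 10 perfused members without a UMI of the 8 lineage markers were taken alone, the AGMO ratio was -0.28.

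DCDC2 and ITGB8 differed from each other. DCDC2 was higher in perfused members, at 1069 against 604 CPM, with 0.83 (0.58 to 1.07) as its log2 ratio, and the ratio was 0.81 without the richest nucleus of each library and 0.86 (0.53 to 1.18) in members with 4 to 6 rule genes. With 2 or more rule genes in place of 3 the DCDC2 ratio was 0.048, so the difference depended on the number of rule genes asked for. In other nuclei the DCDC2 ratio was 0.22. For ITGB8 the log2 ratio was -0.22 (-0.50 to 0.07), and -0.72 with 2 or more rule genes. Among the leading genes, CLU had a ratio of -0.75 (-1.35 to -0.18), which was 0.036 in members with 4 to 6 rule genes, and NCKAP5 one of -0.32 (-0.46 to -0.19), which was 0.093 there. ICAM1 had a ratio of 0.69 (0.10 to 1.30) and KIRREL1 one of 0.46 (0.12 to 0.80), beside 0.48 and 0.75 in other nuclei.

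The injury and repair lists were compared in the same way. The median log2 ratio of the maladaptive repair list was 0.17 over 14 genes, beside 0.30 in other nuclei, and of 12 genes with 20 UMIs 1 was 2-fold higher, AKAP12, and 1 2-fold lower, KIF26B, near the 5.54% and 5.73% of all genes. The interval lay above 0 for 5 of the 12 and below 0 for 1, beside 10.7% and 10.1% of all genes, and AKAP12 was at -0.52 in members with 4 to 6 rule genes. KIF26B was at -0.069 without doublets and at 2.14 with 2 or more rule genes. CDH6 was at 0.03 (-0.30 to 0.35), CREB5 at -0.30 (-0.85 to 0.24), TPM1 at 0.36 (0.05 to 0.68) and PDGFB at 0.82 (0.04 to 1.61). In members without a UMI of the 8 lineage markers TPM1 was at -0.53 and PDGFB at -0.72. The tubule injury list had a median of 1.09 over 9 genes, but of 0.44 over the 4 that reached 20 UMIs. Of these 4, 2 were 2-fold higher, beside 5.54% of all genes, and none 2-fold lower. The list median was 0.31 in members with 4 to 6 rule genes and 0.21 with 2 or more. In members without a UMI of the 8 lineage markers it was -1.53. ANXA1 had a ratio of 1.09 (0.21 to 2.001), and CRYAB, a small heat shock protein gene, had 45 UMIs against 17 and a ratio of 1.84 (1.002 to 2.73). Proximal tubule genes had a median of -0.21 over 16 genes, beside -0.14 in other nuclei, with SLC5A12 at -1.15 (-2.07 to -0.31) and CUBN at -0.86 (-1.24 to -0.48), or 0.13 for CUBN in members without a lineage marker UMI.

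The genes with the largest lower values in perfused members were led, outside those held by few nuclei, by MXI1 and CDK1. MXI1, an antagonist of MYC, had 12 UMIs in 8 perfused members against 75 UMIs in 31 unperfused members, a log2 ratio of -2.21 (-3.23 to -1.32). SQSTM1, the autophagy receptor p62, had 21 UMIs in 15 members against 107 UMIs in 41, a ratio of -1.92 (-2.67 to -1.23), and CDK1 one of -1.97 (-2.87 to -1.16). In other nuclei the ratios were 0.08 for MXI1, -0.17 for SQSTM1 and -1.52 for CDK1. Most CDK1 UMIs lay outside the members: its level was 1278 CPM in LRP2 and CUBN rich nuclei with fewer than 3 rule genes in the unperfused library, so its ratio was low well beyond them. GNB5 was at -1.52, NHSL2 at -1.89, GPNMB at -1.50 and the betaine enzyme gene BHMT at -1.46. The GPNMB interval did not stay below 0 in all 3 settings compared in the last paragraph of results. SLC26A7, an anion exchanger of intercalated cells, was at -3.64 with 101 UMIs against 6, but 83 of the 101 were in 1 nucleus. PDE1C, at -1.59, had 85.4% of its unperfused UMIs in 1 nucleus and was at 0.17 without the richest nucleus of each library.

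**Figure D4:**
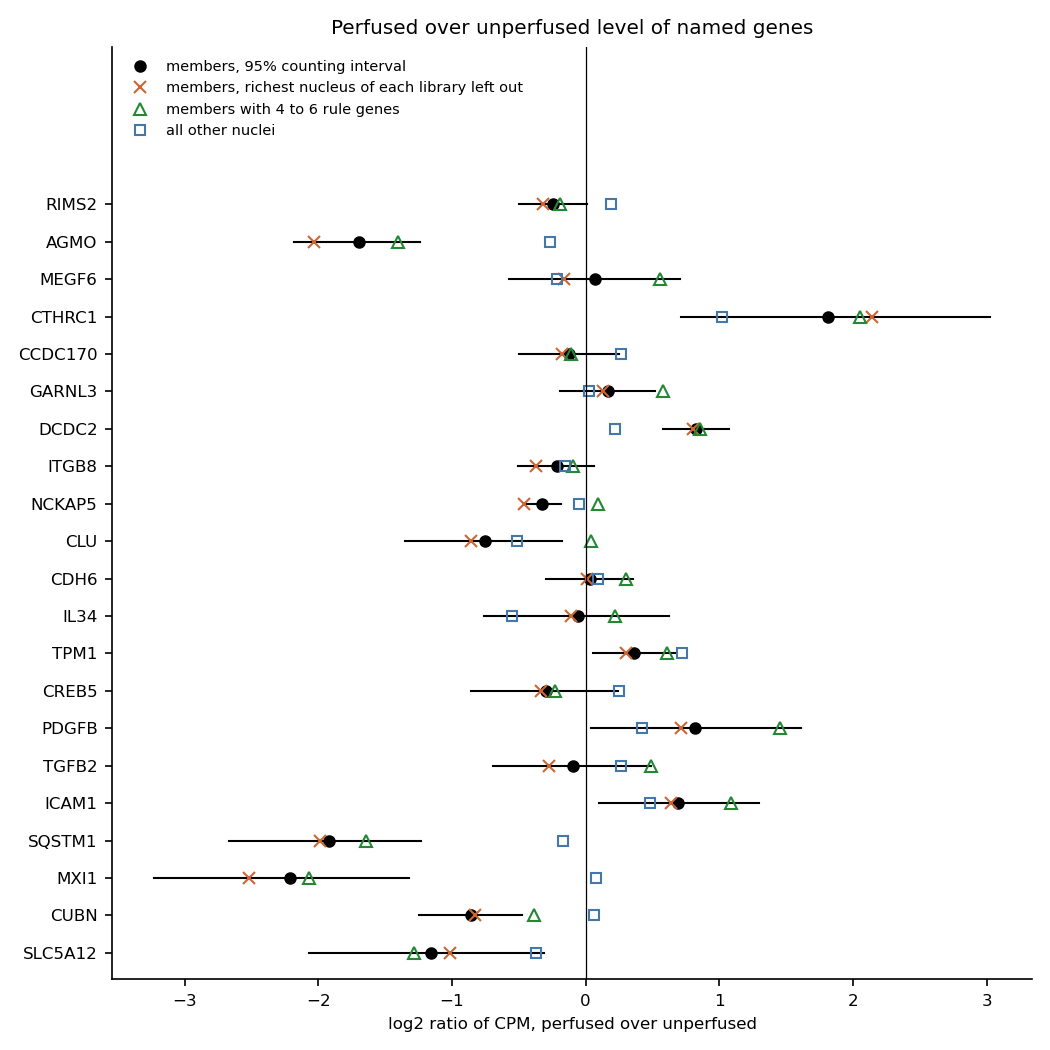
Black dots give the log2 ratio of CPM in perfused over unperfused members (x axis) with its 95% counting interval for 21 named genes (y axis), orange crosses the value without the richest nucleus of each library, green triangles that of members with 4 to 6 rule genes and blue squares that of all other nuclei. AGMO, SQSTM1 and MXI1 lie left of 0 and DCDC2 and CTHRC1 right of 0 in members by all 3 values, whereas NCKAP5 and CLU lie right of 0 with 4 to 6 rule genes.

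The 10 genes with the largest higher values in perfused members were 5 ribosomal protein genes, 4 mitochondrially encoded genes and CST3, the gene of the secreted protease inhibitor cystatin C, and these UMIs came from few nuclei. RPL28 had 59 UMIs against 8, a log2 ratio of 3.31 (2.24 to 4.59), and COX3 had 513 UMIs against 106, a ratio of 2.71 (2.40 to 3.02). Over 65 ribosomal protein genes the median ratio was 1.43 in members and 0.59 in other nuclei. Over 11 mitochondrially encoded genes it was 2.60 in members and 1.11 in other nuclei. Over the whole set, 3 perfused members had more than 300 ribosomal protein UMIs per 10000, at 382, 614 and 741, while the highest unperfused member had 95.3, and this limit was chosen after the values were seen. Their mitochondrial shares were 1.39%, 4.97% and 5.72%, beside a perfused member median of 0.0694%. For each list taken by itself, the 3 perfused members richest in it held 67.4% of the ribosomal protein UMIs, 79.1% of the mitochondrial UMIs, 57.3% of the stroma marker UMIs and 70.1% of the immune marker UMIs, and for stroma they were not the same 3 nuclei. Each of the 3 nuclei over the limit had exactly 3 rule genes, and none had a UMI of CDH6 or DCDC2.

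**Figure D5:**
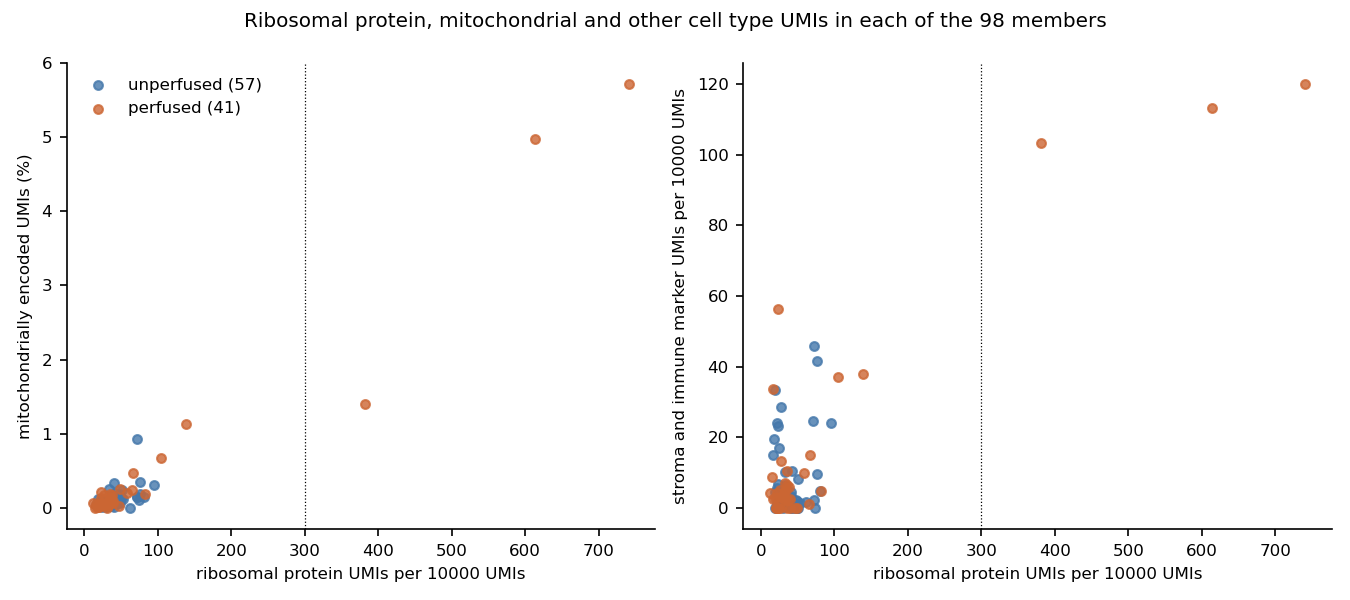
Each dot is a member, with its ribosomal protein UMIs per 10000 UMIs (x axes) against its mitochondrial UMIs in percent (left) and its summed stroma and immune marker UMIs per 10000 (right), and the dotted line marks 300. The 3 perfused members right of the line, at 382, 614 and 741, also have the highest stroma and immune values.

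Without these 3 nuclei, 137 in place of 263 genes were 2-fold higher in perfused members and 293 in place of 272 were lower. The ratio of RPL28 was then 1.41, that of COX3 0.73 and that of CYTB 0.05, down from 2.75. Heat shock genes had a median of 0.54 over 10 genes with the 3 nuclei and of -0.18 without them. In all members, 1 of the 8 genes of this list that reached the UMI minimum was 2-fold higher, beside 5.54% of all genes. None was 2-fold lower. The higher gene was HSPH1, which encodes a large heat shock protein. In the perfused library 40 of its 145 UMIs were in 1 of the 3 nuclei, and in the unperfused library 32 of its 68 UMIs were in 1 nucleus. Its ratio was 1.52 (1.10 to 1.96) in all members, 1.20 without the 3 and -0.31 in other nuclei. DCDC2 and AGMO kept their direction, at 0.997 and -1.56.

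Targets of MRTF-SRF and YAP, transcription regulators that respond to actin tension and cell stretch, were described since perfusion puts the tissue under pressure. The list of MRTF-SRF targets had a median log2 ratio of 0.81 over 15 genes, beside 0.62 in other nuclei and 0.26 in LRP2 and CUBN rich nuclei, and of 8 genes with 20 UMIs 3 were 2-fold higher, beside 5.54% of all genes. It was 0.35 without the 3 ribosome-rich nuclei and -0.014 in members with 4 to 6 rule genes. ACTA2, smooth muscle actin, had 100 UMIs in 9 perfused members against 29 UMIs in 7 unperfused members, a ratio of 2.22 (1.61 to 2.87), beside 1.74 in other nuclei. Without the 3 ribosome-rich nuclei the ACTA2 ratio was 1.24 (0.53 to 1.96), and the gene is also a stroma marker. Of the 45 UMIs then left 36 were in 1 nucleus, and without that nucleus too the ratio was -0.99. MYH9, a non-muscle myosin, was at -0.52 (-1.05 to -0.01), and at 0.13 with 2 or more rule genes. YAP targets had a median of 0.50 over 12 genes, beside 0.29 in other nuclei, and of 0.14 over the 6 that reached 20 UMIs. Immediate early genes had 0.28 over 9 and 0.52 over the 6 with 20 UMIs. NF-kB targets had -0.10 over 8 and 0.14 over the 5 with 20 UMIs, and hypoxia genes -0.20 over 10 and -0.19 over 2. JUN was at 0.94 (0.31 to 1.58) and RELB at -1.40 (-2.65 to -0.30).

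The direction of part of these differences held when single nuclei or whole strata were left out. Of 1984 genes that reached 50 UMIs in at least 1 of the libraries, 241 had an interval above 0 and 278 one below 0. The interval stayed on the same side of 0 without the 3 ribosome-rich nuclei, without the richest nucleus of each library and in members with 4 to 6 rule genes for 87 of the 241 and 71 of the 278. These settings are overlapping subsets of the same members, and the genes were picked by their interval in all members. Passing all 3 is thus not independent support. DCDC2 and ACTA2 were among the 87. However, the ACTA2 ratio was -0.99 without the ribosome-rich nuclei and the richest remaining perfused nucleus. AGMO, MXI1, CDK1, SQSTM1, NHSL2, GNB5, BHMT and SLC26A7 were among the 71, AGMO being a rule gene. For SLC26A7, 83 of the 101 unperfused UMIs were in 1 member with 6 rule genes. Its value in members with 4 to 6 rule genes thus rests mainly on that nucleus. Other settings brought several of the genes named here nearer to 0. In members without a UMI of the 8 lineage markers the ratio was -0.13 for CDK1, -0.13 for NHSL2, -0.46 for BHMT and -0.59 for SLC26A7. With 2 or more rule genes in place of 3 it was 0.048 for DCDC2, -0.72 for MXI1, -0.74 for SQSTM1, -0.56 for GNB5, -0.31 for NHSL2 and -0.72 for SLC26A7. How far these differences belong to perfusion, to the animal or to the library cannot be told apart.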

How the data were processed

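The members and gene lists were chosen with earlier results of these data known, as was the rule, so no list counts as independent evidence. The authors prepared single-nucleus libraries with 10x 3′ chemistry and aligned them with Cell Ranger 5.0.1 to a pig reference of Ensembl release 103, counting introns. They deposited raw UMI counts for each gene in each barcode, not normalized. By their depth the barcodes are called nuclei and not all droplets, and some lie outside the limits on detected genes. There were 31908 gene rows, of which 17365 had a symbol, 811 of them filled in from a table of identifiers.

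Counts of members were summed per library and scaled to CPM (per 1000000 UMIs). Intervals are exact Poisson or binomial at 95% and cover counting error only. Log2 ratios used exact conditional intervals, a count of 0 set to 3, and no ratio where the other library had 3 UMIs or fewer. Folds over other nuclei on the log2 scale had 5 CPM added. Named genes were the rule and limit genes, list members, the 20 with the highest fold over other nuclei in the lower of the 2 libraries (at least 10% of members with a UMI), and the 10 with the largest ratio in each direction (at least 50 UMIs, interval without 0). List medians need 3 genes with a ratio. The ribosomal and mitochondrial lists, the endothelial-marker class (20 or more UMIs of FLT1, PECAM1, EMCN and TEK per 10000), the genes compared in the last paragraph of results, and the values of a list or of ACTA2 without single nuclei were chosen after values were seen.

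Of 336 listed genes, 320 had a row. Scrublet (scanpy 1.11.5, defaults) called doublets, which were kept. Analyses used Python 3.11.15, numpy 2.4.6, scipy 1.17.1 and, for scaling factors, edgeR 4.0.16 and DESeq2 1.42.0 in R 4.3.3. The ratio and its interval were tested on simulated data. The simulated sums had counting error only, so they do not test intervals of genes whose UMIs lie in few nuclei. Correction for ambient RNA was not run, and genome positions and sequences were not used here. Some single genes are not reported here.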

Additional observations from a re-analysis of the deposited data

Results flagged for a closer look

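Among the named genes and the injury, repair, stress and mechanosensitive lists, for 10 genes the log2 ratio of perfused over unperfused had opposite signs in members and in all other nuclei, with an interval without 0 in both. Genes outside that selection met the same condition and are not listed. The difference itself was not tested. NHSL2 was at -1.89 in members and 0.61 in other nuclei, GPNMB at -1.50 and 0.23, and KIF26B at -2.08 and 1.04, with 57.5% of the KIF26B UMIs of unperfused members in 1 nucleus and a member ratio of -0.069 without doublets. CUBN was at -0.86 and 0.06 and SLC12A1 at -1.19 and 0.74, and both are held low by the rule. RELB was at -1.40 and 0.25, MYH9 at -0.52 and 0.18, and WWC1 at -0.35 and 0.46, and without members holding a UMI of another lineage the ratio was 0.13 for CUBN and 0.019 for MYH9. HSPH1 was at 1.52 and -0.31, and LATS2 at 0.73 and -0.12.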

How the results depend on the processing

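No paired analysis was possible because each condition had 1 library. The member share of 0.810% in the unperfused library was 0.412% at 4 rule genes or more, 2.44% at 2 or more, 0.132% in thinned counts and 0.256% with members holding a UMI of another lineage left out, and the perfused share of 0.693% was 0.287%, 2.87%, 0.179% and 0.169%. The log2 fold of ITGB8 over other nuclei in the unperfused library was 1.93, and it was 2.18 without doublets, 2.43 at 4 or more, 1.53 at 2 or more, 2.95 thinned and 2.38 without lineage UMIs. In the perfused library it was 1.86, and 2.48, 0.94 and 1.55 at 4 or more, at 2 or more and without lineage UMIs. DCDC2 in the unperfused library was at 1.34, and 1.60 at 4 or more, 1.11 at 2 or more, 1.95 thinned and 1.93 without lineage UMIs. In the perfused library it was at 1.95, and 2.23, 0.92, 2.90 and 2.66 under the same settings and 2.12 without the 3 ribosome-rich nuclei, an alternative chosen after seeing the data.

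In place of 263 genes 2-fold higher in perfused members there were 96 at 4 or more rule genes, 1 thinned, 54 without lineage UMIs, 137 without the 3 nuclei and 1357 with no minimum of UMIs. In place of 272 lower genes there were 5 thinned, 164 without lineage UMIs, 110 with 10 UMIs in each library and 1341 with no minimum. Thinning and strata reduce the number of genes that reach 20 UMIs. These counts do not say which genes they share.

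Without lineage UMIs, which left 18 and 10 members and an all-gene median of -0.15, list medians of the perfused over unperfused log2 ratio were -1.53 for tubule injury, -0.066 for maladaptive repair, -1.04 for NF-kB targets, 1.39 for immediate early genes, 1.02 for heat shock, -0.82 for hypoxia, -0.26 for MRTF-SRF targets and 0.73 for YAP targets. At 4 or more rule genes they were 0.31 for tubule injury, 0.54 for maladaptive repair, 0.36 for NF-kB, 0.67 for immediate early genes and -0.014 for MRTF-SRF. At 2 or more they were 0.21 for tubule injury, 0.20 for NF-kB, 0.96 for immediate early genes, 0.12 for heat shock and 0.28 for YAP. With 10 UMIs in each library they were 0.34 for tubule injury, 0.31 for maladaptive repair, 0.35 for NF-kB, 0.61 for MRTF-SRF and 0.36 for YAP. Without the 3 nuclei they were 0.60 for tubule injury, 0.32 for maladaptive repair, -0.18 for heat shock and 0.35 for MRTF-SRF. Without doublets they were 0.74 for immediate early genes and 1.63 for MRTF-SRF, and thinned they were 0.50 for maladaptive repair and 0.30 for YAP. Lists with fewer than 3 genes left had no value. The causes were not tested.

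Some single genes changed direction. At 4 or more rule genes NCKAP5 was at 0.093, CLU at 0.036, CYTB at -2.01, ATP6 at -1.14, CST3 at -0.78 and AKAP12 at -0.52. At 2 or more MYH9 was at 0.13 and KIF26B at 2.14. Without lineage UMIs RPS28 was at -0.30, TPM1 at -0.53, PDGFB at -0.72, ACTA2 at -2.42, MYH9 at 0.019 and CUBN at 0.13, thinned ACTA2 was at -2.15, and without its richest nucleus PDE1C was at 0.17. Of the other single-gene values, 315 stayed within the counting interval of the reported value and 95 left it, and some of both changed sign where that interval held 0 (RIMS2, MEGF6, CCDC170, GARNL3, CDH6 and TGFB2). TMM factors were 0.996 and 1.004.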

Other observations

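Barcodes outside the limits on detected genes met the rest of the rule in 5 unperfused and 3 perfused cases, all with over 6000 genes, of 65 and 93 such barcodes. Members were rare among endothelial-marker nuclei, with 1 of 1376 unperfused and 3 of 1040 perfused nuclei that met the endothelial limit. No member had over 7% mitochondrial UMIs.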
